A study of Mus musculus with 15 samples.

Results

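Chromosome 11 of the mouse carries Trp53, the gene that was floxed in the mice of this series, and it was followed here with every non-control array probe placed on it by the array files. The rule took probes whose listed position starts with chr11 and gave 2979 of 42404 distinct probes on the array, or 7.31% of the 40726 autosomal probes. All 2979 were measured in all 8 tissues, and 2856 of them were well above background in both channels of all 15 arrays. They run from position 3100146 to 121697849, are 45 to 60 bases long and have a median spacing of 16960 bases. Of these, 2645 carry a gene or transcript name (1559 distinct names), and 334 are named only by their position.

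The samples were genomic DNA of 5 hepatocellular carcinomas (HCC) and 3 unaffected livers from 3 mice, measured by array comparative genomic hybridization (aCGH) against DNA of normal liver. Mice and reference were on a C57BL/6 and 129 background. All mice carried Albumin-Cre and were Mad2(f/f), so both alleles of Mad2l1, a spindle checkpoint gene, were floxed in every tissue, livers included. Mouse 3151, female and aged 16.4 months, had only 1 Trp53 allele floxed (f/+) and gave HCC 1, HCC 2 and a liver sample. Mouse 3760 (13.8 months; HCC 2 and liver) and mouse 4033 (13.9 months; HCC 1, HCC 2 and liver) were males with both Trp53 alleles floxed (f/f). Cre was driven by the albumin promoter, which is active in hepatocytes, so a liver or tumour can also hold cells with unrecombined alleles. The reference DNA came from the opposite sex, so genotype, sex, age, animal and reference DNA cannot be told apart in any f/f against f/+ comparison.

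Trp53 encodes the p53 transcription factor, which halts the cell cycle or triggers cell death after DNA damage and chromosome missegregation, and its loss is common in liver cancer. In aCGH, tissue DNA and reference DNA compete for the same probe, and the log2 ratio of their signals falls where tissue DNA has fewer copies. Each array was set so that its median autosomal probe is at 0, so a level here is relative to the rest of the autosomes of the same tissue. Unmeasured admixture of normal cells pulls a tumour value towards the value of those cells in the same mouse, which is not 0 at every probe. Fewer copies per cell cannot be told apart from fewer cells with the loss.

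The probes on which the Trp53 result turns are the 1 probe named Trp53 and the nearest probe on each side, both named AK084182 after a cDNA clone. The positions are those of the array files, whose genome build is not given in the sources used here. The capitals mark the 12 bases that the left probe shares with the start of the RefSeq promoter window of Trp53 (GRCm38.p6), which begins 250 bases before the gene's start.
AK084182 (chr11:69393563-69393622): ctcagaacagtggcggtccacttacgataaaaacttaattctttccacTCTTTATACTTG
Trp53 (chr11:69397121-69397180): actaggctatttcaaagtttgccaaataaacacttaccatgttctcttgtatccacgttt
AK084182 (chr11:69407011-69407070): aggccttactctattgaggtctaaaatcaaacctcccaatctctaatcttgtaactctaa
The Trp53 probe thus starts 3510 bases after the first base of that window, inside a gene whose RefSeq length is 11526 bases, while the right probe starts 9890 bases beyond the Trp53 probe. Whether the Trp53 probe lies in an exon or an intron, and where the loxP sites are, was not analysed here.

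Further sequences mark sites that differed between the f/f mice and the f/+ mouse. The first is the stretch of 27 bases shared by 2 overlapping probes named AK155119, a cDNA described in the array files as a sialyltransferase, and the others are called probes without a gene name.
AK155119 (chr11:116615866-116615892): tcgttacacatactttgggctcagatt
chr11:66692071-66692130: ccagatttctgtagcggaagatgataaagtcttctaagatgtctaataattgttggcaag
chr11:57295091-57295150: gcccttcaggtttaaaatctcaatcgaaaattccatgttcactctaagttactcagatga

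The Trp53 probe was far below its surroundings in 4 of the 5 tumours and in both f/f livers. Its log2 ratio was -2.03 in HCC 1 and -2.07 in HCC 2 of mouse 4033 (f/f), which is 24.4% and 23.8% of the reference signal. In mouse 3151 (f/+), it was -1.14 in HCC 1 and -1.06 in HCC 2, or 45.4% and 47.9% of the reference. In HCC 2 of mouse 3760 (f/f), measured on 1 array, it was -0.19, or 87.9% of the reference. The tumours therefore spanned a wide range, with both of mouse 4033 lowest, both of mouse 3151 between, and that of mouse 3760 near its surroundings.

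In unaffected liver the Trp53 probe was at -0.07 in mouse 3151 (f/+), at -0.88 in mouse 3760 and at -0.72 in mouse 4033 (both f/f). These are 95.3%, 54.4% and 60.5% of the reference. Both f/f livers were thus below the f/+ liver, and in mouse 3760 the liver was lower than the tumour.

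The probes around Trp53 did not share these values. The median of the 10 probes on each side lay between -0.39 and 0.07 in the 8 tissues, and relative to it the Trp53 probe was at -2.04 and -1.82 in HCC 1 and HCC 2 of mouse 4033. The same difference was -0.94 and -0.67 in HCC 1 and HCC 2 of mouse 3151, -0.84 and -0.72 in the livers of mice 3760 and 4033, and -0.14 both in HCC 2 of mouse 3760 and in the liver of mouse 3151. In the first 6 of these tissues the Trp53 probe was below each of its 20 neighbours, and in the last pair it lay among them. Among the 2979 probes ordered from the lowest, it ranked between 3 and 14 in those 6 tissues, and 597 and 983 in HCC 2 of mouse 3760 and the liver of mouse 3151. The forward and dye-swapped arrays gave the same side of 0 in the 6 low tissues (for example -1.78 and -2.28 in HCC 1 of mouse 4033) and opposite sides in the liver of mouse 3151 (0.12 and -0.25).

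**Figure D1:**
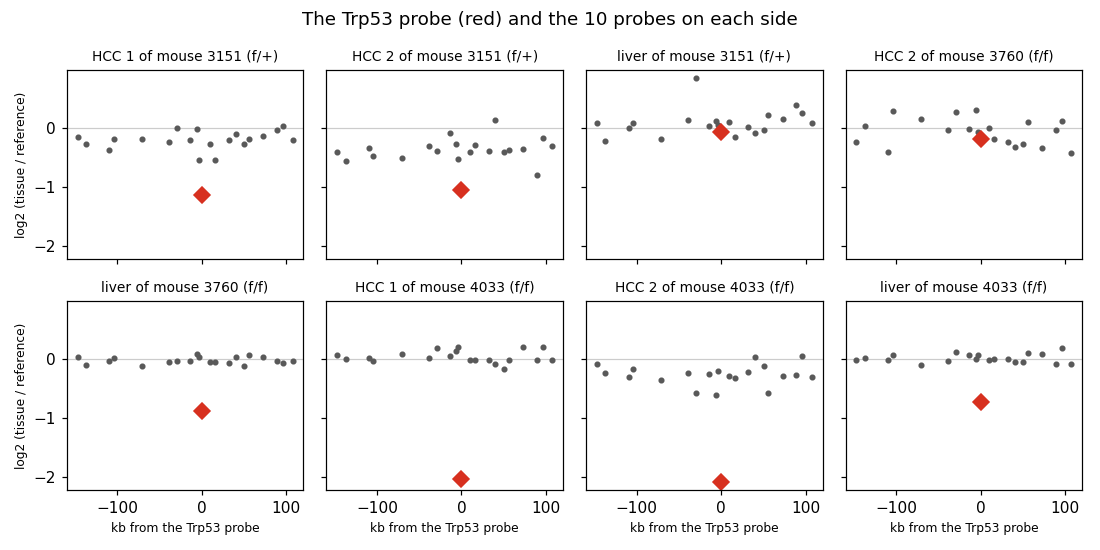
Log2 ratio of tissue to reference DNA (y axis) at the Trp53 probe (red diamond) and the 10 probes on each side (grey points), by distance from the Trp53 probe in kb (x axis), 1 panel for each tissue with its Trp53 genotype. The red diamond lies below all grey points except in the liver of mouse 3151 and HCC 2 of mouse 3760.

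Of the named neighbours, the 2 probes of Wdr79 (the older name of Wrap53, which overlaps Trp53 on the opposite strand), Dnahc2 (a dynein heavy chain), Atp1b2 (a subunit of the sodium pump), Shbg (the sex hormone binding globulin made by the liver), Sat2 and Fxr2 showed no comparable fall. Their differences between HCC and liver ran from -0.21 to -0.04 and none passed the test. The 2 AK084182 probes shown above differed by -0.28 and -0.21 (limma adjusted p = 0.748 and 0.763). Efnb3, an ephrin ligand, had a difference of -0.41 (SE 0.23, limma adjusted p = 0.73), and its highest value was 0.83 in the liver of mouse 3151.

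Over the 5 HCC the mean at the Trp53 probe was -1.30 ± 0.78 (SD, n = 5), and over the unaffected livers it was -0.56 ± 0.43 (SD, n = 3). HCC minus liver was -0.74 (SE 0.35). The exact two-sided permutation test over the 56 ways to split the tissues gave p = 0.179, and the limma fit over all autosomal probes gave an adjusted p of 0.682. Both took the 8 tissues as independent, although they came from 3 mice and each liver shared a mouse with its tumours. Within scan day 1, which held 2 HCC and 2 livers, the difference was -0.31, and within scan day 2, with 3 HCC and 1 liver, it was -1.36. Without the liver of mouse 3151 it was -0.50 (exact permutation p = 0.476), where the splits left allow no p below 0.05.

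Between genotypes, with each mouse counted once as the mean of its HCC and its liver, the Trp53 probe was at -0.58 in the f/+ mouse and at -0.53 and -1.39 in the f/f mice, so the groups overlapped. The difference f/f minus f/+ was -0.38 (SE 0.26, limma adjusted p = 0.771), and no exact test was run because 3 mice allow no p below 0.333. In the livers alone it was -0.73 and in the tumours alone -0.02. The limma adjusted p of the liver value was 0.0246, but its f/+ side was 1 liver, assumed to vary like the 2 f/f livers, and the 2 arrays of that liver lay on opposite sides of 0. With the 8 tissues as samples the difference was -0.47, with scan day added to that fit as a block it was -1.12 (limma adjusted p = 0.698), and among the tumours scanned on day 2 it was -0.97. Without the liver of mouse 3151 the f/+ mouse was represented by its tumours alone, while the f/f mice kept tumours and liver. The difference then turned, to 0.14, a value that mixes tissue kind with genotype.

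The whole chromosome was lower than the autosomal median in 3 of the 5 tumours. Its mean log2 ratio was -0.22 in HCC 1 and -0.32 in HCC 2 of mouse 3151 (f/+), -0.27 in HCC 2 of mouse 4033, 0.08 in HCC 1 of mouse 4033 and 0.02 in HCC 2 of mouse 3760 (all f/f). The 3 livers were at -0.0058, -0.0162 and -0.0035 for mice 3151, 3760 and 4033. Both f/+ tumours were thus below every liver, while the f/f tumours fell on both sides of the livers, and the 2 tumours of mouse 4033 differed from each other by more than the f/+ tumours did. The level of HCC 2 of mouse 3151 equals 80.2% of the reference signal, and 95.6% of its probes were below 0 against 49.6% in the liver of the same mouse.

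Against a cut-off of 0.3 for a whole-chromosome change, HCC 2 of mouse 3151 was the only tissue past it, with HCC 2 of mouse 4033 just inside. With normexp background correction HCC 2 of mouse 3151 was at -0.27, inside the cut-off, and with each array centred on its mode HCC 2 of mouse 4033 was at -0.31, outside it. Mode centring also turned HCC 1 of mouse 4033 from 0.08 to -0.17. Among the 7 tissues with both dye orientations, the forward and swapped levels lay furthest apart in the liver of mouse 3151 (-0.04 and 0.03).

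**Figure D2:**
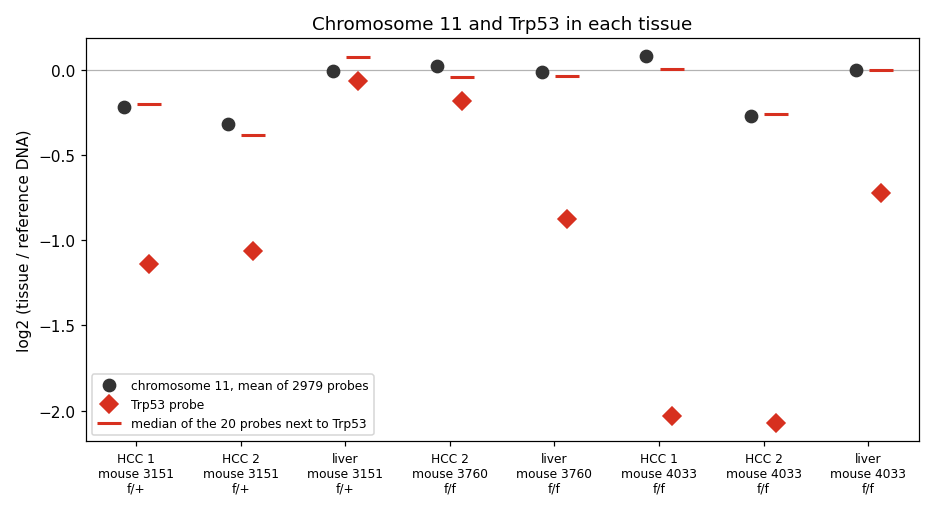
Log2 ratio of tissue to reference DNA (y axis) in the 8 tissues (x axis, with Trp53 genotype): mean of all 2979 chromosome 11 probes (black circle), Trp53 probe (red diamond) and median of its 20 neighbours (red bar). The circles stay between -0.32 and 0.08, and the diamonds reach -2.07.

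The mean level of the HCC was -0.14 ± 0.18 (SD, n = 5) and that of the livers -0.0085 ± 0.0068 (SD, n = 3). HCC minus liver was -0.13 (SE 0.12). The exact two-sided permutation test gave p = 0.357, and limma over the 19 autosome levels gave an adjusted p of 0.515. Both again took the tissues as independent of their mouse. Within scan day 1 the difference was 0.06, with the sign turned, and within scan day 2 it was -0.26.

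The level was -0.14 in the f/+ mouse and 0.0032 and -0.05 in the f/f mice, a difference f/f minus f/+ of 0.11 (SE 0.085, limma adjusted p = 0.54). Without the liver of mouse 3151 the f/+ mouse was represented by its tumours alone and the difference was 0.24 (limma adjusted p = 0.0465, with 1 mouse on the f/+ side). With the 8 tissues as samples it was 0.13 (limma adjusted p = 0.698) and, with scan day added to that fit as a block, -0.07 (limma adjusted p = 0.755), and between HCC 2 of mouse 4033 and the tumours of mouse 3151, all scanned on day 2, it was -0.0045. All tissues of mouse 3151 were scanned on day 2, and of the f/f tissues only HCC 2 of mouse 4033 was.

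At the scale of 10 Mb windows, 7 of the 8 tissues were flat along the chromosome and 1 tumour had a step. Shorter segments are given below. In windows of 10 Mb, the median of HCC 2 of mouse 3760 lay 0.07 to 0.14 below its chromosome median in the 8 windows up to 80 Mb and 0.11 to 0.14 above it in the 5 windows beyond. In the other tissues no window was further than 0.08 from the chromosome median, and none in any tissue passed 0.3. Segmentation placed the step between 78786315 (in Lgals9, which encodes galectin-9) and 78824307, both in the tumour itself and in the tumour minus the liver of the same mouse.

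In HCC 2 of mouse 3760 the median was -0.09 over the 1599 probes before the step and 0.14 over the 1380 probes after it, a rise of 0.23. At the same boundary the other 7 tissues changed by -0.02 to 0.0096. Trp53 lay in the lower part, and Nf1, Brca1, Erbb2 and Stat3 lay in the upper part. This tumour was measured on 1 forward array only, so the step was not seen on a second array.

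**Figure D3:**
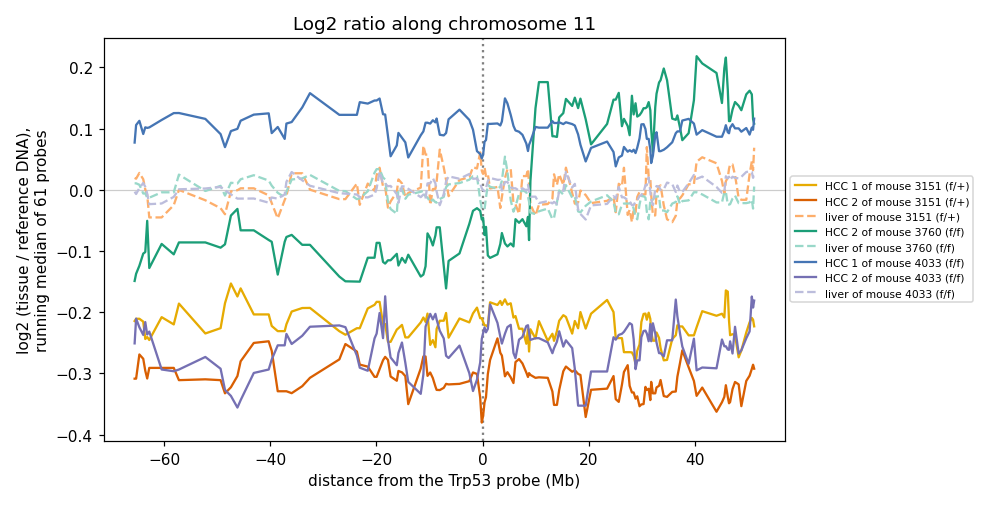
Running median over 61 probes of the log2 ratio of tissue to reference DNA (y axis) by distance from the Trp53 probe in Mb (x axis) for the 5 HCC (solid lines) and 3 unaffected livers (dashed lines). The line of HCC 2 of mouse 3760 rises by 0.23 beyond Trp53, the other tumours stay at their own level and the livers stay near 0.

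The segmentation (at least 5 probes a segment) found 1 segment in each tissue of mouse 3151 and 6 to 21 in each tissue of the f/f mice. Its penalty grows with the noise of a tissue, taken from differences between neighbouring probes. Noise was 0.17 to 0.18 in mouse 3151, 0.08 to 0.11 in the f/f tissues with 12, 15 and 21 segments, and 0.20 and 0.19 in those with 6 and 7. With a lower penalty HCC 2 and liver of mouse 3151 had 3 segments each. The part of noise in these counts was not tested. Of the 64 segments in all 8 tissues, 8 were focal, that is, at least 0.3 from the chromosome median and holding the smaller part of its probes. Of these, 5 held the AK155119 probes, 1 in each f/f tissue. With a lower penalty there were 12 focal segments, 1 of them at AK155119 in the f/+ liver of mouse 3151 (0.72 above the chromosome median), and with a minimum of 3 probes there were 14. The other 3 of the 8 were around Ccm2 in the liver of mouse 3760 (6371709 to 6451188) and, in HCC 2 of mouse 4033, from 40651298 to 41728321 and from 46393340 to 46493246. Low segments short of the focal rule overlapped the latter places in HCC 1 (means -0.80 and -0.96) and liver (-0.64 and -0.99) of mouse 4033. With the lower penalty the Ccm2 segment was also focal in HCC 2 of mouse 3760 (0.56 above the chromosome median). When each tumour was set against the liver of its own mouse, 0 focal segments remained and the step in HCC 2 of mouse 3760 was the only boundary among the 5 tumours.

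No probe of chromosome 11 was called between HCC and unaffected liver (limma adjusted p below 0.05; 0 of 2979, against 0% of all 40720 probes tested). At an unadjusted p below 0.05, 37 members (1.24%) were found against 7.4% of all probes. HCC lay wholly below liver for 42 members (1.41%; 3.22% of all probes) and wholly above for 1 (0.0336%; 5.3% of all probes). The lowest unadjusted p was that of Phf12, a subunit of a histone deacetylase complex, at 0.0115. Its tumours ranged from -0.40 to 0.0067 and its livers from 0.03 to 0.45 (difference -0.45, SE 0.15, limma adjusted p = 0.478). A probe without gene name at 16493282, Tusc5, Bcl6b (a transcriptional repressor) and Ccdc55 followed, with differences of -0.48, -0.60, -0.47 and -0.42 and adjusted p from 0.524 to 0.544.

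Between the genotypes, 26 of 2979 members were called (0.873%, against 0.774% of all probes tested), 15 higher in the f/f mice (0.344% of all probes) and 11 lower (0.43% of all probes). The share on chromosome 11 was thus close to that of the genome. The fit behind these calls had 1 residual degree of freedom against 9.54 from the prior, which limma takes from all probes. Its SE and p-values thus rest mainly on spread pooled over probes, and the lone f/+ mouse adds no measure of spread. At an unadjusted p below 0.05 there were 238 members (7.99%; 9.11% of all probes). The differences of the 26 ranged in size from 0.72 to 2.81 log2 units, with a median of 0.92, and 8 were at least 1.

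The tissues of the 2 genotypes did not overlap at 22 of the 26, 13 of them higher and 9 lower in f/f, which describes probes that were chosen for this difference. Over all members, f/f tissues lay wholly above f/+ tissues at 170 (5.71%; 2.36% of all probes) and wholly below at 27 (0.906%; 2.68% of all probes).

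Called probes lay in 10 of the 13 windows of 10 Mb, with none before 20 Mb or between 30 and 40 Mb, and with 13 of the 957 members between 50 and 80 Mb (1.36%) and 13 elsewhere (0.643%), a division drawn after the values were seen. Only the AK155119 probes were neighbours of each other. The called and all members had the same median GC content of 36.7%.

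**Figure D4:**
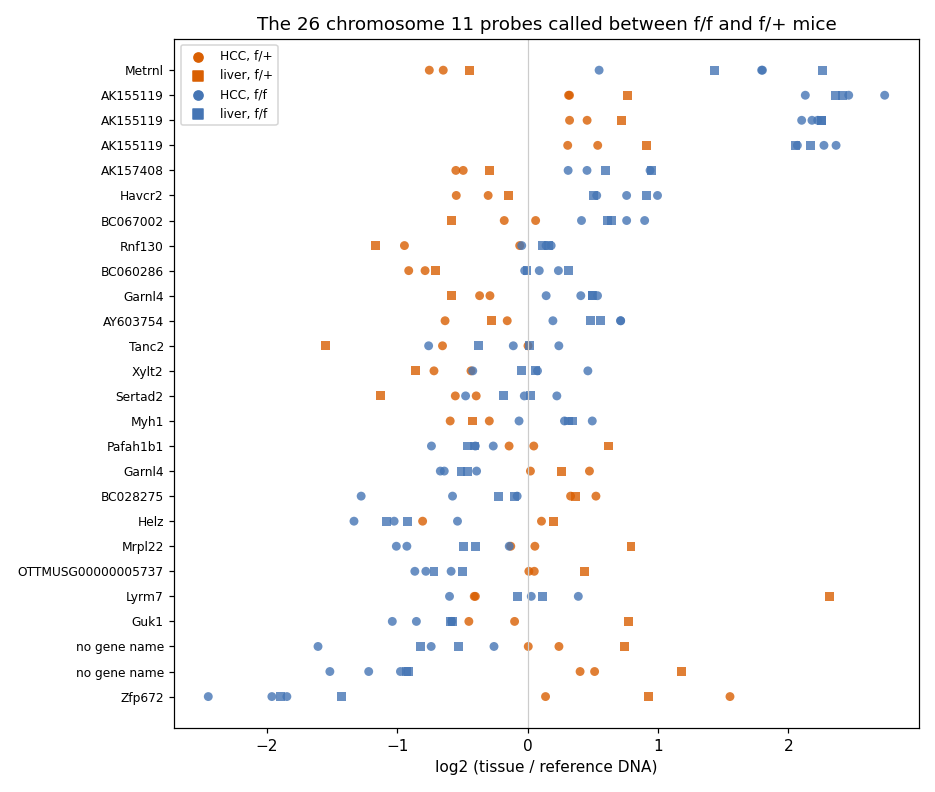
Log2 ratio of tissue to reference DNA (x axis) in each tissue at the 26 called chromosome 11 probes (y axis, named as in the array files, ordered by the difference between genotypes); orange marks the f/+ mouse, blue the f/f mice, circles HCC and squares unaffected liver. At Metrnl and AK155119 all blue points lie to the right of the orange points, and at Zfp672 all lie to the left.

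The AK155119 site stood far above its surroundings in the f/f tissues, with focal segments whose medians were 2.05 to 2.32 above the chromosome median. The array files describe this cDNA as a clone from dendritic cells that encodes a sialyltransferase, an enzyme that adds sialic acid to glycans. At the probe from 116615866 to 116615925, the f/f tissues read 2.74 (HCC 2 of mouse 3760), 2.42 (liver of mouse 3760), 2.46 and 2.13 (HCC 1 and HCC 2 of mouse 4033) and 2.36 (liver of mouse 4033). The f/+ tissues read 0.31, 0.32 and 0.76 for HCC 1, HCC 2 and liver. The groups did not overlap, and all tissues, f/+ included, were above 0.

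The difference f/f minus f/+ was 1.91 (SE 0.15, limma adjusted p = 0.000138) at that probe, which covers the 27 bases printed above. At the overlapping probe from 116615844 it was 1.52, and at the separate probe from 116616755 it was 1.65. The first 2 share sequence and are not independent. In mouse 4033 the liver lay between the tumours at the probe at 116615866, whereas in mouse 3151 both tumours were below the liver at all 3 AK155119 probes. The St6galnac2 and St6galnac1 probes on both sides stayed outside these values when segments of 3 probes were allowed, where the segment held the AK155119 probes alone in 5 of 5 f/f tissues.

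Zfp672, a zinc finger gene, had the lowest adjusted p of the chromosome. Its probe (58133370 to 58133428) read 1.55, 0.14 and 0.92 in HCC 1, HCC 2 and liver of mouse 3151, and between -2.45 and -1.43 in the 5 f/f tissues. The difference was -2.81, with an SE (0.13) that came mainly from spread pooled over all probes. The gap between the lowest f/+ tissue (0.14) and the highest f/f tissue (-1.43) was wider than the spread within either genotype.

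The probe without gene name at 66692071, shown above, read 0.51, 0.40 and 1.18 in HCC 1, HCC 2 and liver of mouse 3151 and -1.52 to -0.92 in the f/f tissues, a difference of -1.90. Metrnl, a secreted protein related to meteorin, was at -0.65, -0.76 and -0.45 in mouse 3151 and at 0.55 to 2.26 in the f/f tissues, a difference of 2.24 (SE 0.24, limma adjusted p = 0.000866). At both, tumour and liver of each mouse were on the same side.

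These 6 probes (3 of AK155119, Zfp672, Metrnl and that at 66692071) were also the whole set of calls in the tumours alone (0.201%; 0.28% of all probes) and without the liver of mouse 3760, and all 6 were among the 9 calls (0.302%; 0.356% of all probes) of a fit over the 8 tissues as samples with scan day as a block. Without the block that fit made 20 calls (0.671%; 0.862% of all probes). Fits over the 8 tissues took tissues of the same mouse as independent, although genotype belongs to the mouse. All of these fits reuse the same arrays, so they are not separate support for the 6 probes. The rest of the 26 were smaller. BC067002, Rnf130 (a ubiquitin ligase), OTTMUSG00000005737 and Garnl4 (a GTPase activator gene) completed the 10 lowest adjusted p, with differences of 0.99, 0.95, -0.91 and 0.89.

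Some calls rested on 1 tissue or 1 dye orientation. Lyrm7, a mitochondrial complex III assembly factor, was at 2.32 in the liver of mouse 3151 and between -0.60 and 0.39 in all other tissues, and its difference was -1.92 on forward and -0.06 on swapped arrays. Rnf130 differed by 1.80 on forward and 0.12 on swapped arrays, and Tanc2 by 1.75 and -0.36. Garnl4 was called at 2 probes in opposite directions (0.89 and -0.79), and 1 of 2 probes each was called for Havcr2 (the immune checkpoint receptor TIM-3) at 0.99 and for Pafah1b1 (the dynein regulator Lis1) at -0.73.

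Where a liver was left out, its mouse was represented by its tumours alone, which mixed tissue kind with genotype. The count of 26 moved with the libraries used, and the count over all probes moved with it. It was 6 without the liver of mouse 3760 (0.201%; 0.393% of all probes), 16 without that of mouse 4033 (0.537%; 0.57% of all probes) and 83 without that of mouse 3151 (2.79%; 4.16% of all probes). It was 100 in the livers alone (3.36%; 3.1% of all probes) and 126 on forward arrays (4.29%; 3.75% of all probes), and with normexp background correction it was 43 (1.44%; 1.67% of all probes). In the difference of tumour minus own liver it was 1, Lyrm7 (0.0336%; 0.0147% of all probes). Noise, taken from the differences between neighbouring probes, was 0.17 to 0.18 in the 3 tissues of mouse 3151, 0.19 in HCC 2 of mouse 4033, 0.20 in HCC 2 of mouse 3760, and 0.08 to 0.11 in the others. Over the members, forward and swapped arrays correlated at -0.20 to 0.04 in the tissues of mouse 3151 and at 0.21 to 0.40 in the 4 f/f tissues with both. Probes are not independent replicates, and the part of this noise in the calls was not tested.

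A few probes set 1 mouse apart in tumours and liver alike, by at least 1 log2 unit from every tissue of the other mice, a rule set after the values were seen. For mouse 3151 these were 6 members (0.201%; 0.179% of all probes): the 3 AK155119 probes, Zfp672, that at 66692071 and 1 of the 2 probes of Dppa1, a developmental pluripotency gene. Dppa1 read 0.22 to 0.39 in mouse 3151, -0.95 and -0.81 in HCC 2 and liver of mouse 3760, and -4.62, -3.63 and -4.29 in HCC 1, HCC 2 and liver of mouse 4033. The mice thus formed 3 separate levels, and the fit did not call the probe between genotypes (difference -2.86, limma adjusted p = 0.29).

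Dppa1 also counted for mouse 4033, beside a probe without gene name at 40651298 (2 members, 0.0671%; 0.0491% of all probes). The latter read 0.26, 0.26 and 0.11 in mouse 3151, -0.77 and -0.94 in mouse 3760, and -3.59, -3.06 and -2.29 in mouse 4033, again in 3 levels. For mouse 3760 the only member was Ccm2, a cerebral cavernous malformation gene (0.0336%; 0.0761% of all probes), at 1.99 in HCC 2 and 2.07 in liver against -0.34 to 0.34 elsewhere.

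The gene groups examined had medians near that of the chromosome. At the share of all probes called between genotypes, lists of this size would hold about 0 or 1 call. Such counts therefore do not set a group apart. Growth suppressors (17 genes, 37 probes, 0 called in either comparison) had a median HCC minus liver of -0.16, where all members had -0.13 and all autosomal probes -0.0011. Their median f/f minus f/+ was 0.12, against 0.11 and 0.01. Nf1, which restrains Ras, was at -0.01 in HCC minus liver over its 4 probes and 0.24 in f/f minus f/+, with Suz12, a Polycomb subunit, at 0.27 in the latter. Xbp1, a stress response factor, and Hic1 were lowest in HCC minus liver at -0.29 and -0.24, Rnf43 was at -0.06, and Xbp1 and Nf2 were lowest between genotypes at -0.06 and -0.05.

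Growth promoters (19 genes, 40 probes, 0 called) had medians of -0.14 and 0.11. Flt4, a receptor of lymphatic endothelium, and the phosphatase Ppm1d were lowest in HCC minus liver at -0.24 and -0.21, and Crk and Bcl11a were highest at -0.02 and -0.01. Between genotypes Npm1 and Egfr were at 0.0038 and 0.01, and Bcl11a and Stat3 at 0.22 and 0.25.

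Mitosis and chromosome segregation genes (15 genes, 26 probes) had medians of -0.13 and 0.11, with 1 probe called between genotypes, the lower of the 2 Pafah1b1 probes, whose mean was -0.29. Hmmr and Ccng1 were lowest in HCC minus liver at -0.28 and -0.22, and Cdc6 and Kpna2 were both at -0.04. Between genotypes Tubg1, which encodes gamma-tubulin, was at 0.32, Ska2 at 0.30 and Ndel1 at -0.05. None of these but Pafah1b1 passed the test.

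Genes of liver metabolism and secretion (18 genes, 37 probes, 0 called) had medians of -0.15 and 0.09. Asgr2, a subunit of the asialoglycoprotein receptor, was at -0.30 in HCC minus liver over 3 probes. Nags, of the urea cycle, was the highest of the list in HCC minus liver at 0.02. Fasn, the fatty acid synthase, was at 0.26 in f/f minus f/+. Igfbp3 and Shbg were lowest between genotypes at -0.03 and 0.04.

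Igfbp1, a secreted binding protein of insulin-like growth factors, was the highest of that list between genotypes and, beside Nags, in HCC minus liver (-0.11). Its 1 probe read -0.93, -0.51 and -0.51 in HCC 1, HCC 2 and liver of mouse 3151, 0.13 and -0.28 in HCC 2 and liver of mouse 3760, and -0.16, 0.13 and 0.31 in HCC 1, HCC 2 and liver of mouse 4033. The genotypes did not overlap, but the difference of 0.65 did not pass the test (limma adjusted p = 0.0955).

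Trp53 and its neighbourhood (14 genes, 24 probes, 0 called) had medians of -0.18 and 0.04. Trp53 and Efnb3 were lowest in both comparisons, Senp3 and Sat2 highest in HCC minus liver at -0.08 and -0.04, and Polr2a and Atp1b2 highest between genotypes at 0.27 and 0.19. Tandem gene clusters (keratins, chemokines, olfactory receptors, Hoxb and others; 96 genes, 117 probes) had medians of -0.14 and 0.12, with Havcr2 the 1 call. Krt33a and Ccl1 were lowest in HCC minus liver, both at -0.32, and Olfr464 and Olfr376 highest at 0.07 and 0.06. Between genotypes Krt39 and Il4 were at 0.51 and 0.50 and Ccl3 and Slfn10-ps at -0.32 and -0.27.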

How the data were processed

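The 15 two-colour Agilent arrays (8 tissues, 7 with a dye-swapped array) were deposited as scanner text files. Per the file headers, the authors ran Agilent Feature Extraction 9.1.3.1, which gives background-subtracted, dye-normalized signal intensity per spot and a log10 ratio; the deposited value table held the same log10 ratios, turned to tissue over reference. The genome build is not given in the sources used here. The 24 chromosome 11 probes found inside RefSeq GRCm38.p6 promoter windows lay 99997 to 186498 bases from their listed positions. RefSeq positions were therefore not set against listed positions directly. The start of the Trp53 window was placed through the bases it shares with the left AK084182 probe, and only the RefSeq gene length was set beside it.

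Control and outlier-marked spots were left out, log2 of the processed intensity ratio (tissue over reference) was averaged over the spots of a probe, centred on the autosomal median of the array, and averaged over dye orientations to 1 replicate a tissue. No loess was applied. Saturated chromosome 11 spots numbered 0; the median signal was 3.42 to 8.87 times background. The number of arrays limits precision.

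HCC against liver was tested by limma 3.58.1 (R 4.3.3) over 40720 autosomal probes and 19 autosome levels, Benjamini-Hochberg adjusted, and by exact two-sided permutation (scipy). Genotype was tested with the mouse as replicate (1 f/+, 2 f/f), the lone f/+ mouse assumed to vary like the f/f mice. Genotype fits with scan day or slide as a block took the 8 tissues as samples, although tissues of the same mouse are not independent. P-values cover these samples only. Segments came from optimal partitioning (penalty 3 times noise squared times ln of 40720, at least 5 probes). The scripts were tested on simulated data. The labels tie tissues to mice; over chromosome 11 probes, HCC and liver deviations from their group means correlated at 0.40, -0.01 and 0.36 in mice 3151, 3760 and 4033.

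Members and gene lists were chosen with earlier results of these data known. Named genes were Trp53 and 5 probes on each side, the 2 highest and 2 lowest of each list in each comparison, the 10 lowest adjusted p where any passed (otherwise the 5 lowest p), focal segments and windows past 0.3; others were named after their values were seen. One gene that this rule names is not reported here. Of 1559 names, 1089 matched current RefSeq symbols and 156 matched synonyms. Alternatives were normexp (offset 50), the value table, other centrings, forward arrays, no dim probes, each tissue left out, mouse, scan day or slide as a block, other tissues for the genotype, and local baselines for Trp53; removal of GC content was added after seeing the data.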

Additional observations from a re-analysis of the deposited data

Results flagged for a closer look

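Of 23 chromosome 11 values checked over the 5 HCC (the level, the spread of probes, Trp53 and its 5 neighbours on each side, and the 10 probes of lowest adjusted p between genotypes), 1 had a sample far from the rest, where chance would flag about 1 in 20. It was Rnf130 (49899223), at -0.95 in HCC 2 of mouse 3151 against -0.06 to 0.18 in the other tumours.

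At 1 of the 3 AK155119 probes, that at 116615844, tumours lay on opposite sides of their own liver in the 2 genotypes. HCC minus own liver was -0.60 and -0.37 in the f/+ mouse and 0.20, 0.02 and 0.22 in the f/f mice, a difference of 0.63 between the means. The difference was not tested. The other AK155119 probes did not share it: at 116616755 all f/f tumours were below their own liver, and at 116615866 they lay on both sides of it.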

How the results depend on the processing

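The 0 calls between HCC and liver held under all 18 alternatives. The Trp53 difference between HCC and liver kept its sign under all 23 (-1.36 to -0.31). No test of it passed the threshold (exact permutation or limma adjusted p from 0.0571 to 0.671), mouse as a block included (-0.67, limma adjusted p = 0.38). The level difference between HCC and liver kept its sign and, where tested, stayed short of the threshold under 21 of 22. With mouse as a block it was -0.12 (limma adjusted p = 0.699), and within scan day 1 it turned to 0.0605. For both differences, the exact permutation test with 1 tissue left out can give no p below 0.05, so those p-values cannot decide. The exact permutation p of 0.0571 came without HCC 2 of mouse 3760 (-1.02), where every remaining HCC was below every liver at the Trp53 probe. The level f/f minus f/+ turned with scan day as a block (-0.0691), in the livers alone (-0.0040) and within scan day 2 (-0.0045), and ran from 0.0696 to 0.245 when 1 tissue was left out, with an adjusted p of 0.0465 without the liver of mouse 3151. The Trp53 difference f/f minus f/+ had an adjusted p of 0.0246 in the livers alone (-0.73), where 1 f/+ liver stood against 2, was -1.12 with scan day as a block and -0.97 within scan day 2, turned in HCC minus own liver (0.71) and ran from -0.71 to 0.14 when 1 tissue was left out, turning without the liver of mouse 3151. The 26 calls between genotypes became 43 with normexp (21 shared; 1.67% of all probes called), 126 on forward arrays (24 shared; 3.75%), 100 in the livers alone (25 shared; 3.1%), 6 in HCC alone (0.28%) and 1 in HCC minus own liver (0.0147%), and 6 to 83 when 1 tissue was left out (0.393% and 4.16%). Fits with scan day as a block took the 8 tissues as samples: 9 calls (8 shared; 0.356%), against 20 (17 shared; 0.862%) without the block. Segments numbered 96 with a lower penalty (12 focal) and 85 with a minimum of 3 probes (14 focal), against 64 (8 focal). In genotype fits with each mouse counted once, a mouse without its liver was represented by its tumours alone. Mouse 3760 without HCC 2 was represented by its liver alone. Such values mix tissue kind with genotype. The causes of these changes were not tested. No within-day genotype value could be had for day 1, which held f/f tissues alone.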
